A study of Mus musculus with 6 samples.

Results

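The genes described here are 10 regulators that act with or below the transcription factor p73 when an epithelial cell builds many motile cilia. They are Foxj1, Rfx1, Rfx2, Rfx3, Rfx4, Myb, E2f4, E2f5, Ccno and Mcidas. They were chosen by name as known regulators of ciliogenesis, and a probe was assigned to one of them where the array's accession for that probe matched a RefSeq transcript of the gene. All 10 genes were on the array, among 19751 genes that could be named there, with 13 probes among 39429. All 13 probes passed the filter on dim probes. The 3 testes of TAp73 knockout mice (C57BL/6J males aged 10 weeks) were set against 3 testes of TAp73 wild type males of the same strain and age, with 1 array for each mouse. TAp73 names the p73 isoforms with a transactivation domain, made from Trp73. The sources used here do not give how the allele was made or whether littermates were used. RNA came from the whole testis, so fewer cells of a type and less RNA per cell cannot be told apart in any value below.

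In multiciliated cells of the airway, the oviduct, the ependyma and the efferent ducts of the male tract, geminin family proteins such as MCIDAS bind E2F4 or E2F5 and switch on genes for mass production of centrioles, with cyclin O acting on the same step. MYB, FOXJ1 and RFX factors follow, and FOXJ1 and RFX factors turn on the parts of the motile axoneme. p73 is known to act near the top of this cascade. The testis proper builds a single motile axoneme in each spermatid, the sperm tail, and RFX2 is known to be needed for spermatid development there.

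Of the 10 regulators, Myb alone differed past the test's threshold, at 2.32-fold higher in the knockout (log2 difference 1.22, SE 0.22, limma adjusted p = 0.0492, n = 3 and 3). The other 9 genes, with 12 probes, lay between -0.03 and 0.26 on the log2 scale, with adjusted p of 0.196 to 0.925. The 95% intervals of those 12 differences ran from -0.33 at the lowest to 0.50 at the highest, so that no interval reached a 2-fold change in either direction. Calls were rare in the whole comparison: 2.88% of the 31801 tested probes passed the threshold, 0.248% as higher and 2.64% as lower. Of the 13 probes here 1 passed, and it was higher. In 5 of 13 (38.5%) the groups did not overlap, each time with the knockout above; over all tested probes the groups were apart in 31.7%, in 18.6% with the knockout above.

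**Figure D1:**
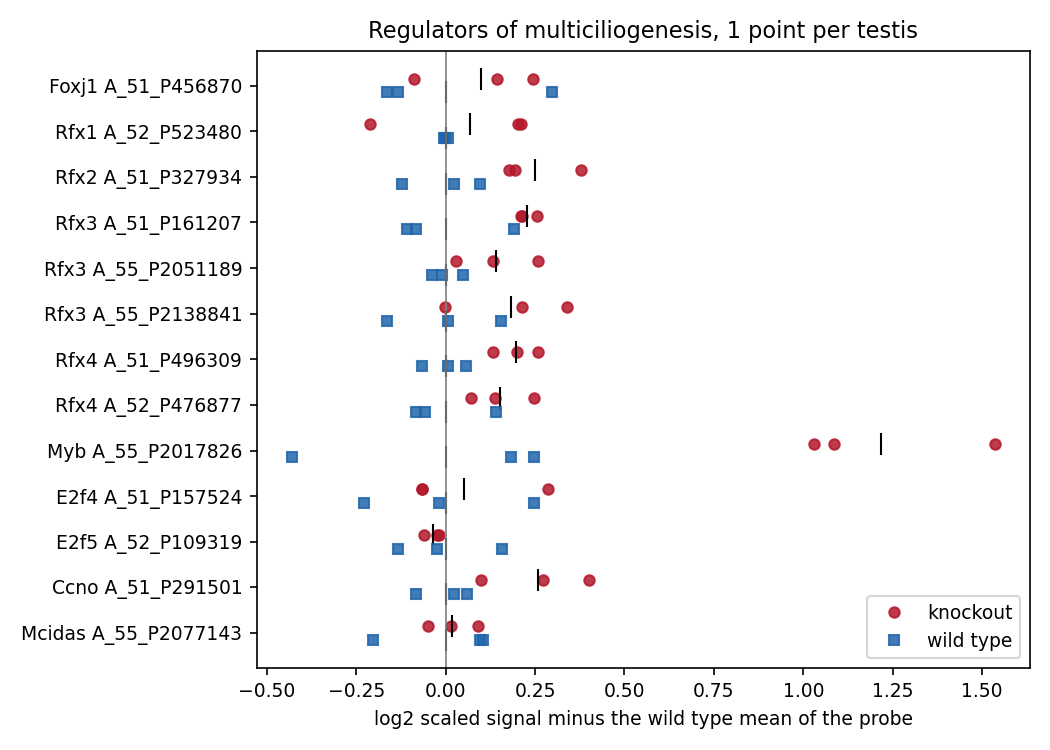
Log2 scaled signal of each of the 13 probes in each testis, minus the wild type mean of that probe (x axis, log2 units); red circles are the 3 knockout testes, blue squares the 3 wild type testes, and black ticks the group means. Myb is the row whose 2 groups lie farthest apart; in 8 of the 13 rows the groups overlap.

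**Figure D2:**
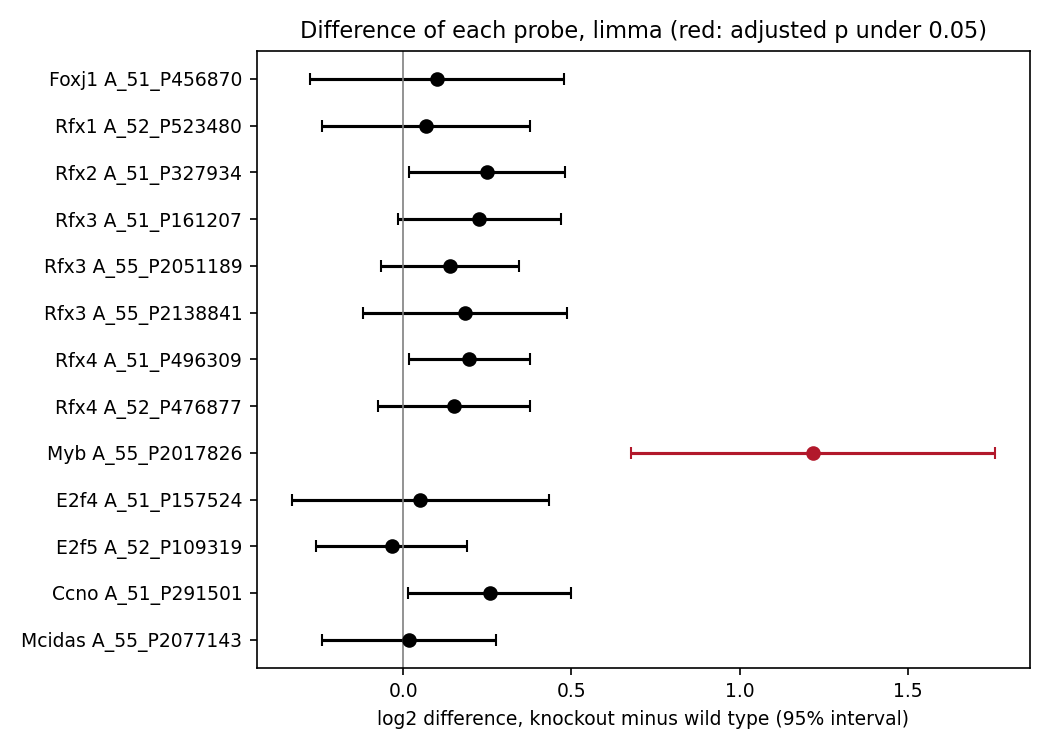
Difference between the groups for each of the 13 probes (x axis, log2, knockout minus wild type) with its 95% interval from limma, in red where the adjusted p was under 0.05. The interval of Myb ran from 0.68 to 1.76, and the other 12 lay between -0.33 and 0.50.

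Values are given below as scaled signal, which is the scanner's linear processed signal after each array was brought to a common 75th percentile of 4962 units. The knockout arrays were dimmer before this step, by 0.26 on the log2 scale at the 75th percentile. Signals of different probes depend on the probe as well as on the transcript, and they were not compared with each other. None of the 13 probes was saturated on any array, and 12 of them were well above background on all 6 arrays. Trp73, the targeted gene, was lower on all 3 knockout arrays than on any wild type array with each of its 3 probes, which differed by -6.01, -3.21 and -0.99 (limma adjusted p = 0.00369, 0.00213 and 0.0104). On the knockout arrays these probes were well above background on 1, 2 and 3 of the 3, so that the first and second differences are set largely against background; with normexp they were -1.88 and -0.90. The sources used here do not say which of these probes lie in deleted sequence. A deposited value table carries the opposite group labels for the same arrays, and all directions here follow the scanner files.

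Early in the cascade, below p73, stand Mcidas and Ccno, which are direct neighbours on chromosome 13 in the RefSeq annotation. Mcidas encodes the geminin family coactivator multicilin, and Ccno the cyclin O that multiciliated cells need to make centrioles in number. The 250 bases before the start of each gene are shown because the pair shares a locus. They cover chr13:112993618-112993867 for Mcidas and chr13:112987552-112987801 for Ccno (RefSeq, GRCm38.p6, plus strand), written 5′ to 3′. Capitals mark GTTGCC, a 6-letter part of the X-box that RFX factors bind, and in Ccno also CCGGGAAA, the reverse complement of the E2F-type site TTTCCCGG. Both runs of letters were chosen after the sequences had been read.
Mcidas: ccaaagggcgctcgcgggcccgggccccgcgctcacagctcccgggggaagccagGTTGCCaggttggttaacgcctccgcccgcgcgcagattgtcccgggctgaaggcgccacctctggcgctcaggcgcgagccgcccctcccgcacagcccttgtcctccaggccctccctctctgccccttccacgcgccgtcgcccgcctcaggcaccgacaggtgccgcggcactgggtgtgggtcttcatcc
Ccno: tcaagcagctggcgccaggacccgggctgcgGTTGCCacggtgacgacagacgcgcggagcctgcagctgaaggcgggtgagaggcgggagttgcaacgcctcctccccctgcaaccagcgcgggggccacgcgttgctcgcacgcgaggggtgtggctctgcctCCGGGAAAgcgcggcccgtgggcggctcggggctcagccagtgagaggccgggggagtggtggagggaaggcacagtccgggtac
The Mcidas window holds GTTGCC at positions -195 to -190 from the start. The Ccno window holds it at -219 to -214 and CCGGGAAA at -85 to -78.

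Mcidas read 46912, 44533 and 42616 units in knockout replicates 1 to 3 and 47384, 47166 and 38332 units in wild type replicates 1 to 3. The highest and the lowest value were both wild type, and the groups overlapped. The difference was 0.02 (SE 0.11, 95% interval -0.24 to 0.28, limma adjusted p = 0.925). Ccno read 2844, 2602 and 2306 units in the knockouts and 2189, 2034 and 2245 units in the wild types. Every knockout testis was above every wild type testis for Ccno, although the lowest knockout and the highest wild type lay close together. The difference was 1.20-fold (log2 0.26, SE 0.10, interval 0.02 to 0.50), with an unadjusted p of 0.0404 and an adjusted p of 0.202 in limma. Within slide 1, which held 2 arrays of each group, Ccno differed by 0.30 and in the slide 2 pair by 0.18. Whether the neighbours differed from each other was not tested.

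E2f4 and E2f5 encode the E2F factors that multicilin binds; in other cells both work with pocket proteins as repressors of the cell cycle. E2f4 read 1581, 2017 and 1580.3 units in the knockouts and 1634, 1412 and 1965 units in the wild types. In each group 1 testis stood above the other 2, and the groups overlapped almost fully (difference 0.05, SE 0.16, 95% interval -0.33 to 0.43, limma adjusted p = 0.858). E2f5 read 3379, 3393 and 3297 units in the knockouts and 3377, 3133 and 3836 units in the wild types. All 3 knockout values for E2f5 fell inside the wild type range. Its difference of -0.03 (SE 0.09, interval -0.26 to 0.19, adjusted p = 0.838) was the only one below 0 among the 13 probes.

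Myb encodes c-MYB, a transcription factor of blood cell progenitors that is also switched on early in multiciliated cells. Its promoter window is shown because Myb was the called gene. The 250 bases before its start cover chr10:21160985-21161234 on the minus strand (RefSeq, GRCm38.p6) and are written 5′ to 3′. Capitals mark TTTGGCGG, an E2F-type site at positions -12 to -5 from the start, chosen after the sequences had been read.
Myb: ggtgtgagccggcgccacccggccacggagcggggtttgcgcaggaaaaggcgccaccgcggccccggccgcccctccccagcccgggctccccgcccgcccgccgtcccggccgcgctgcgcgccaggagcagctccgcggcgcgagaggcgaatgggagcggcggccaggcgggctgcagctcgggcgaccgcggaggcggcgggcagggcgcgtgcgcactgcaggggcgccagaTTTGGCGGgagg
The forkhead site TGTTTAC was matched once in the Myb window as well, in the bases after the start.

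Myb read 91.3, 64.3 and 66.9 units in knockout replicates 1 to 3. In wild type replicates 1 to 3 it read 23.4, 37.4 and 35.7 units. All knockout testes were above all wild type testes, and the lowest knockout was well clear of the highest wild type. The group means on the log2 scale, relative to the 75th percentile, were -6.08 ± 0.28 (SD, n = 3) in the knockout and -7.30 ± 0.37 (SD, n = 3) in wild type. The fold of 2.32 had a 95% interval of 1.60 to 3.38. These are signals near the lower end of the scanner's range: Myb was well above background on all 3 knockout arrays and on all wild type arrays but replicate 1. On wild type replicate 1, where it was not, the lowest scaled signal that counted as well above background was 45.7 units, against 15.6 to 28.1 units on the other 5 arrays. That array also had the smallest share of probes well above background, 74.4% against 79.4% to 84.4%. The part of that array's background in the Myb difference was not tested; without it the difference was 1.00 (limma adjusted p = 0.0693).

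The direction for Myb held within both slides. The slide 2 pair allowed no test. Within slide 1, 0 of the 31698 tested probes were called, those of Trp73 included, so the lost call there is not particular to Myb. The difference was 1.41 within slide 1 (limma adjusted p = 0.364), 0.84 in the slide 2 pair, and 1.22 with slide as a block (adjusted p = 0.104). Leaving out any 1 of the 6 arrays ended the call, with differences of 1.00 to 1.34 and adjusted p of 0.0693 to 0.136. With normexp background correction and quantile normalization the difference was 0.40 (adjusted p = 0.159).

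**Figure D3:**
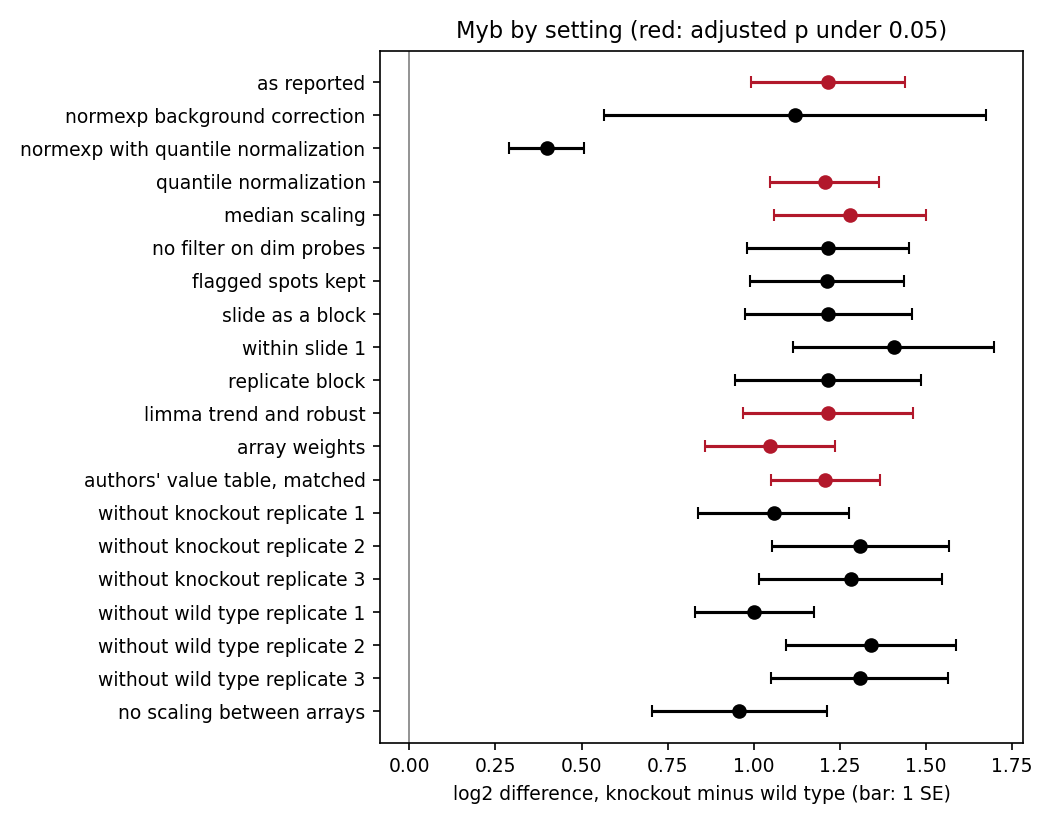
Difference of the Myb probe (x axis, log2, knockout minus wild type; bars are 1 SE) as reported and under 19 other settings (rows), in red where the adjusted p was under 0.05. All values lie above 0, from 0.40 to 1.41, and 5 of the 19 other settings keep the call.

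The genes whose profiles over the 6 arrays were most like that of Myb were Pdzd3, Nlrp4a and Slc22a29. Likeness was the root mean square difference of log2 values after each gene was centred on its mean, over 6 arrays that share 1 scaling, and it was 0.19, 0.22 and 0.24. Pdzd3 read 58.5, 45.1 and 44.4 units in the knockouts and 16.1, 31.8 and 32.7 units in the wild types, and Nlrp4a 53.5, 34.2 and 48.9 units against 16.2, 29.4 and 28.7 units. Slc22a29 read 236, 207 and 209 units against 101, 146 and 109 units. In all 3 genes the lowest array was wild type replicate 1, as it was for Myb, which their choice by likeness favours. Pdzd3 was well above background on 1 and Nlrp4a on 2 of the wild type arrays, and on wild type replicate 1 both read below its 45.7 units. Slc22a29 was called higher (0.89, limma adjusted p = 0.0414), and Pdzd3 (0.94, adjusted p = 0.145) and Nlrp4a (0.90, adjusted p = 0.143) did not pass the test. The choice of these genes by likeness favours differences near that of Myb as well.

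Foxj1 encodes the forkhead factor that switches on the genes of motile cilia. It read 20876, 22376 and 17773 units in the knockouts and 17216, 16877 and 23206 units in the wild types. Wild type replicate 3 was the brightest of the 6 and the other wild types the dimmest, so the groups overlapped. The difference was 0.10 (SE 0.16, 95% interval -0.28 to 0.48, limma adjusted p = 0.709). Without wild type replicate 3 it was 0.25 (adjusted p = 0.329). The profiles most like that of Foxj1 were those of Tpst1, Immp1l and Npas1, with root mean square differences of 0.04, 0.05 and 0.06. In each of these 3 genes wild type replicate 3 was brighter than the other wild types, as it was for Foxj1. None of the 3 passed the test (limma adjusted p = 0.878, 0.533 and 0.556). Their choice by likeness favours both.

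The RFX factors bind X-box sequences in the promoters of cilia genes and are represented here by Rfx1 to Rfx4. The Rfx2 window is shown because Rfx2 had the largest difference of the 4 and holds GTTGCC, a part of the X-box, before its start. It covers chr17:56831009-56831258 on the minus strand (RefSeq, GRCm38.p6), written 5′ to 3′, and capitals mark GTTGCC at positions -116 to -111 from the start.
Rfx2: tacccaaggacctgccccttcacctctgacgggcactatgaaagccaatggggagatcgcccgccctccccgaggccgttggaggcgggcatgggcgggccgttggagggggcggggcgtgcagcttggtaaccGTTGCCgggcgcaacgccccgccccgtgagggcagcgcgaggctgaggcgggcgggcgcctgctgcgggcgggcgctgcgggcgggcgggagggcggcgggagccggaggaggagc
Promoter windows of 300 bases, 250 before and 50 after the start, were found for 7 of the 10 genes, with 2 windows for Rfx4; Foxj1, E2f4 and E2f5 were not matched. Searched on both strands, the full X-box palindrome, the E2F sites TTTCCCGC, TTTGGCGC and TTTCGCGC and the decamer of the p53 family were found in 0 of the 7 genes. Over all 32851 windows they were found in 0.804%, 1.84% and 8.36%. The forkhead site TGTTTAC was found in 1, Myb, against 3.65% of all windows. GTTGCC, which can lie inside the palindrome, was found in 5 of 7 genes (Rfx1, Rfx2, Rfx3, Ccno and Mcidas), against 12.5% of all windows. In Rfx1 and Rfx3 it lay after the start. TTTCCCGG, TTTGGCGG or TTTCGCGG was found in 2 (Myb and Ccno), against 2.07%. GTTGCC and these last E2F-type letters were chosen after the sequences had been read, and a match is a run of letters, not a measured binding site.

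Rfx2 read 16252, 16450 and 18684 units in the knockouts and 15375, 13228 and 14626 units in the wild types. Every knockout testis was above every wild type testis, by a small margin. The difference was 1.19-fold (log2 0.25, SE 0.10, 95% interval 0.02 to 0.48), with an unadjusted p of 0.0387 and an adjusted p of 0.200 in limma. It was 0.12 within slide 1 and 0.50 in the slide 2 pair, and -0.01 with no scaling between arrays. Without that scaling the median over all tested probes was -0.20. Rfx1, a broadly expressed member of the family, read 9041, 9078 and 6782 units in the knockouts and 7825, 7837 and 7892 units in the wild types. The 3 wild types were nearly equal and knockout replicate 3 lay below them, with the other knockouts above (difference 0.07, SE 0.13, adjusted p = 0.762). For Rfx1 the difference was 0.21 within slide 1 and -0.21 in the slide 2 pair.

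Rfx3, which is needed for cilia of the node and the ependyma, had 3 probes for the same transcript. The brightest, A_55_P2051189, read 8360.1, 7775 and 9117 units in the knockouts and 7562, 7885 and 7425 units in the wild types (difference 0.14, limma adjusted p = 0.342). Probe A_51_P161207 read 550.2, 534 and 535 units against 527, 428 and 435 units, with the groups just apart (0.23, adjusted p = 0.233). The dimmest, A_55_P2138841, read 103, 94.7 and 81.6 units against 82.1, 91.0 and 73.0 units, with the groups overlapping (0.18, adjusted p = 0.391). The 3 probes had the same sign, with differences of 0.14 to 0.23 and standard errors of 0.08 to 0.13. Under normexp background correction the values of the 2 dimmer probes were 0.44 and 0.75, with none called.

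Rfx4 has transcripts in brain and in testis. Its probe A_51_P496309 read 4987, 4759 and 5189.8 units in the knockouts and 4364, 4519.9 and 4147.5 units in the wild types. The groups did not overlap, and the spread within each was small (SD 0.06 on the log2 scale in both). The difference was 0.20 (SE 0.07, 95% interval 0.02 to 0.38, unadjusted p = 0.0369, adjusted p = 0.196 in limma), and it was 0.20 within slide 1 and in the slide 2 pair as well. The second probe, A_52_P476877, read 3316, 3747 and 3479 units against 3479, 3034 and 2985 units, with 1 wild type inside the knockout range (0.15, adjusted p = 0.350).

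How many of the 13 differences lay above 0 depended on how the arrays were scaled. With the 75th percentile 12 did, with median scaling 13, and with quantile normalization, normexp, both together or the authors' value table matched to the arrays 11. Without any scaling, a setting chosen after seeing the data, 1 did, Myb, and the median over all tested probes was then -0.20. Against the median of all tested probes, which was 0.06 with the 75th percentile, 10 of 13 lay above it; without scaling 10 did too, and under normexp, where the median of all tested probes was 0.22, 5 did. The median of the 13 was 0.15.

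**Figure D4:**
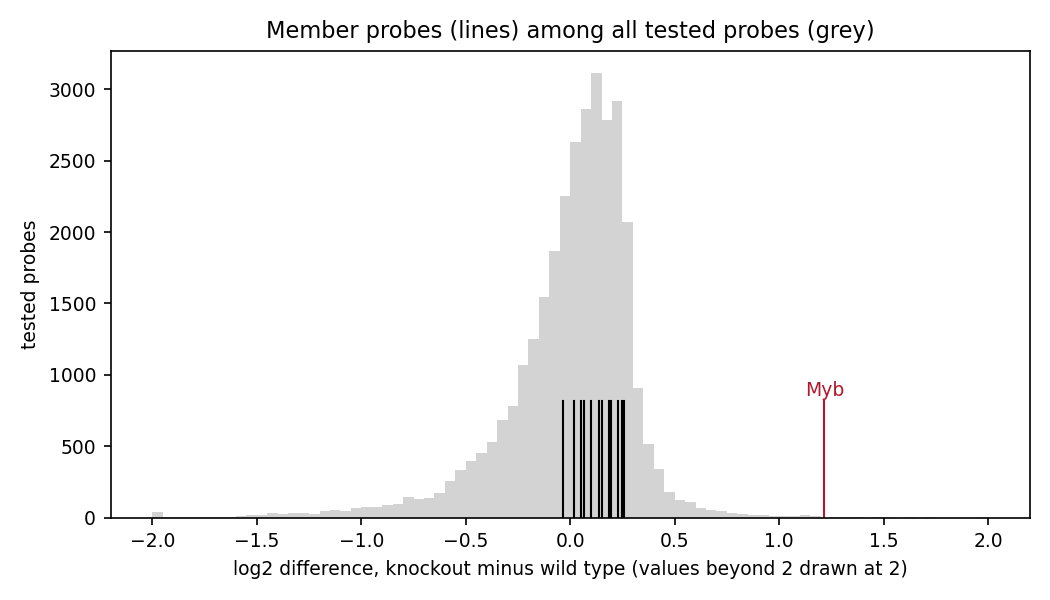
Distribution of the log2 differences (x axis, knockout minus wild type) over all 31801 tested probes, in grey (y axis, number of probes), with the 13 probes of the regulators as vertical lines. The lines other than Myb fall between -0.03 and 0.26, inside the bulk of the distribution, of which 90 in 100 probes lie between -0.57 and 0.36; Myb stands at 1.22.

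The wider pathway was read from 6 lists, with 1 probe for each gene. Over all 16947 genes measured this way, 0.218% were called higher and 3.53% lower, with a median difference of 0.05. At an unadjusted p under 0.05, 12% were higher and 13.6% lower, the shares beside which the counts at that level below stand. Of 16 measured genes upstream of the multiciliated fate, with the Notch pathway that restrains it, 1 fell, Trp73 itself, and 0 rose (median -0.00). At an unadjusted limma p under 0.05, 3 of the 16 were higher and 2 lower. Of 19 genes for E2F factors, their DP partners, pocket proteins and the MuvB core, 1 fell and 0 rose (median -0.02). At that unadjusted level 2 of the 19 were higher and 4 lower. The called gene was Rb1, which encodes the retinoblastoma pocket protein. Rb1 read 2774, 2599 and 2725 units in the knockouts and 3465, 3609 and 3527 units in the wild types, a difference of -0.39 (SE 0.07, limma adjusted p = 0.0435). The Rb1 call was lost without any 1 of the 6 arrays (adjusted p = 0.0763 to 0.173) and with slide as a block (adjusted p = 0.0917), while the difference stayed between -0.41 and -0.36 in those fits.

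In the other 4 lists limma called 0 genes in either direction. Of 10 other RFX, FOXJ and FOXN genes (median 0.01; at unadjusted p under 0.05, 0 higher and 1 lower), Foxn3 and Foxn2 came nearest to the threshold; they are forkhead factors, at -0.21 (adjusted p = 0.175) and -0.13 (adjusted p = 0.297). Of 27 centriole genes (median 0.15; at unadjusted p under 0.05, 4 higher and 0 lower), the nearest were Ccdc78 (0.42, adjusted p = 0.0941), a protein of the structures on which multiciliated cells grow centrioles, and the centrin Cetn4 (0.24, adjusted p = 0.138). Of 38 motile cilium genes that need FOXJ1 or RFX factors elsewhere (median 0.24; at unadjusted p under 0.05, 15 higher and 1 lower), the nearest were the axonemal dynein Dnah5 (0.73, adjusted p = 0.055) and the transport protein Ift172 (0.30, adjusted p = 0.0931). Dnah5 cleared the background on 2 of the 3 wild type arrays; it passed the test with quantile normalization (adjusted p = 0.028). Of 18 germ cell transcription regulators (median 0.20; at unadjusted p under 0.05, 5 higher and 1 lower), the nearest were Brdt (0.39, adjusted p = 0.121) and Tcfl5 (0.22, adjusted p = 0.132), both active in meiotic and later germ cells.

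With quantile normalization the medians of the centriole, motile cilium and germ cell lists were 0.08, 0.02 and 0.04, against 0.03 over all measured genes. At least 1 array was saturated for 14 of the 38 motile cilium genes and 4 of the 27 centriole genes. Cetn4 was among those centriole genes and was saturated on 4 arrays. Its difference of 0.24 became -0.02 with quantile normalization and -0.01 without scaling. Without scaling the median over all measured genes was -0.21. A reading capped at one level everywhere gains 0.26 in the knockout from the scaling alone. The part of saturation in the list medians and in the Cetn4 difference was not tested.

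**Figure D5:**
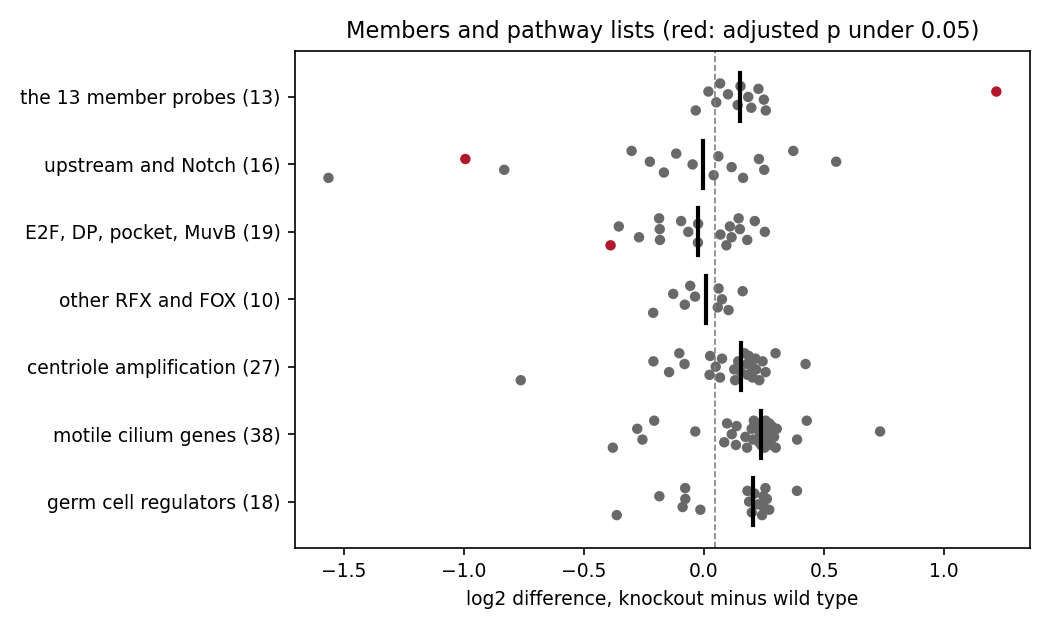
Log2 differences (x axis, knockout minus wild type) of the 13 regulator probes and of the measured genes of the 6 pathway lists (rows, number in brackets; vertical scatter has no meaning); black bars are medians, the dashed line is the median of all measured genes, 0.05, and red points have an adjusted p under 0.05. The red points are Myb, Trp73 and Rb1.

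Markers of the other cell types of the testis were read on the same arrays. All 10 markers of spermatocytes, 10 of round and 10 of elongating spermatids were measured, and 0 were called (medians 0.21, 0.24 and 0.26; limma, with 4, 6 and 2 above wild type and 0 below at an unadjusted p under 0.05). Their smallest p-values were those of Spo11 (0.23, adjusted p = 0.146), Zpbp (0.25, adjusted p = 0.106) and Akap4 (0.27, adjusted p = 0.196), and 2, 4 and 10 of the markers were saturated on at least 1 array. The 3 medians were 0.13, 0.03 and 0.02 with quantile normalization and -0.04, -0.02 and 0.00 without scaling. Over all measured genes the median was 0.03 with quantile normalization and -0.21 without scaling. The summed scaled signal of the round spermatid markers was 388640 to 438370 units in the knockouts and 347090 to 379150 units in the wild types. For the spermatocyte markers it was 252590 to 272320 units against 221430 to 229360 units. For the elongating spermatid markers it was 592670 to 801660 units against 563490 to 642190 units, with the groups overlapping. Of 12 Sertoli cell markers 3 fell and 0 rose (median -0.44), among them Sox9 (-0.64, limma adjusted p = 0.0186), against 3.53% lower over all measured genes. At an unadjusted limma p under 0.05, 0 of the 12 were higher and 8 lower. The sum of the 12 was 156310 to 174280 units in the knockouts and 182080 to 202210 units in the wild types. Of 7 measured Leydig cell markers 1 fell, Hsd3b1 (-0.76, limma adjusted p = 0.0369), and the median was -0.29, beside the same 3.53%. At an unadjusted limma p under 0.05, 1 of the 7 was higher and 2 lower. Star, picked after its value was seen, lay at 0.63 with the groups apart and did not pass the test (limma adjusted p = 0.197). The sum of the Leydig markers was 87540 to 138980 units in the knockouts and 115650 to 172610 units in the wild types, with the groups overlapping. The parts of these cell types in the regulators' differences were not tested.

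Markers of blood cells and of spermatogonia were read as well, and the part of these cells in the Myb difference was not tested. Of 13 measured leukocyte and haematopoietic markers 4 fell, 0 rose and the median was -0.23, with Cd74 at -1.11 (limma adjusted p = 0.0124). Over all measured genes 3.53% were called lower and 0.218% higher. At an unadjusted limma p under 0.05, 0 of the 13 were higher and 6 lower. The sum of the 13 was 63493 to 68428 units in the knockouts, below the 73133 to 81737 units in the wild types. Of 10 spermatogonial markers 0 were called (median -0.03, limma; at unadjusted p under 0.05, 1 higher and 1 lower), with the smallest p for Gfra1 (0.32, adjusted p = 0.198). Their sum was 103380 to 113210 units in the knockouts and 97281 to 108990 units in the wild types. Of 4 measured erythroid markers 0 were called (median -0.43; limma, 0 higher and 2 lower at unadjusted p under 0.05), with the smallest p for Hbb-bt (-0.65, adjusted p = 0.182).

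Multiciliated epithelium lines the efferent ducts that leave the testis, and 8 of 12 markers of it were measured. Of these 3 are the regulators Ccno, Foxj1 and Mcidas themselves. Of the other 5, Deup1, Tppp3, Fam183b, Dynlrb2 and Cfap126, 0 were called (median 0.23, limma; at unadjusted p under 0.05, 0 higher and 1 lower). The sum of the 5 was 262870 to 315200 units in the knockouts and 246570 to 253130 units in the wild types. In that sum 4 of the 5, all but Tppp3, were saturated on at least 1 array. Spermatids build a motile axoneme too, and the parts of spermatids and of duct epithelium in these signals were not tested. Over all 8 markers, the regulators included, the median was 0.20. It was -0.01 with quantile normalization and -0.06 without scaling, against 0.03 and -0.21 over all measured genes. Sntn, a protein of the tips of epithelial cilia, was not well above background on any of the 6 arrays. Tppp3, also known from multiciliated cells, had the smallest p (-0.26, adjusted p = 0.191). Of 17 markers of efferent duct, rete testis and epididymis epithelium 13 were measured and 0 called (median 0.01; limma, at unadjusted p under 0.05, 0 higher and 1 lower), with the smallest p for Krt19 (-0.60, adjusted p = 0.199). Lcn5, Lcn8 and Spint4, secreted proteins of the epididymis, were not well above background on any array. The sum of the 13 was 9856 to 12934 units in the knockouts and 9528 to 10086 units in the wild types.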

How the data were processed

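Whole-testis RNA of 6 mice was read on 1-colour Agilent arrays. Spots were read with Feature Extraction 10.7.3.1, per the file headers. The authors' files hold linear spot intensity, of which the deposited background-subtracted processed signal was used. The authors' series table holds probe intensity with nearly equal distributions in all columns; it is on a linear scale, and the sources used here do not give its method. Its columns were matched to the arrays by correlation over probes (0.968 to 0.994), which put every column under the opposite group label. The submitters' processing notes name limma.

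Control spots and spots marked as non-uniform or as outliers (163 to 280 per array) were left out. Log2 signals were averaged per probe and the 75th percentile of each array was subtracted. A probe was tested if well above background on at least 3 arrays, with at least 2 values per group. Probes were named through RefSeq accessions (assembly GRCm38.p6). The test was limma's lmFit and eBayes (version 3.58.1, R 4.3.3; two-sided, group only), with Benjamini-Hochberg adjustment over all tested probes and a threshold of 0.05; the script was tested on simulated data. The arrays lie on 2 slides, with 2 testes of each group on slide 1 and 1 of each on slide 2. Same-numbered testes did not deviate together (correlations -0.09 to -0.03), so the numbers were not taken as pairs. Pathway lists used the brightest complete probe of each gene. Every probe of the regulators is reported. Other genes were named by rule: Trp73, up to 4 called genes of a pathway list or the 2 with the smallest p, the gene of each marker list with the smallest p, and the 3 most similar profiles for Myb and Foxj1. The regulators and lists were chosen with earlier results of these data known. Precision is limited by 3 arrays per group.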

Additional observations from a re-analysis of the deposited data

How the results depend on the processing

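Most alternatives changed 1 choice. Normexp also moved from the processed to the median spot signal, and the authors' value table kept the marked spots (31817 probes tested, against 31801). Myb stayed the 1 called gene of the set with quantile normalization, median scaling, limma trend and robust, array weights, the authors' value table and the brightest probe of each gene. The count was 0 under normexp, with and without quantile normalization, without the filter on dim probes, with the filter set at all 6 arrays (where Myb was not tested), with marked spots kept (Myb adjusted p = 0.0508), with slide as a block, within slide 1, with the replicate block (adjusted p = 0.186), without scaling, and in the 6 fits without 1 replicate (0 to 0). Over the settings that tested it, the adjusted p of Myb was 0.0228 to 0.537. No other regulator was called in any setting (limma; the smallest adjusted p was 0.0986). At an unadjusted p under 0.05 the 13 probes gave 4 higher and 0 lower as reported (12.3% and 10.9% over all tested probes), 0 and 0 under normexp, and 1 to 5 higher and 0 lower in the other settings.

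Over all tested probes the 917 calls (91.4% lower) became 0 under normexp (810 lower and 1075 higher at unadjusted p under 0.05; the adjusted p was 0.537 for all 3 Trp73 probes too), 496 with normexp and quantile normalization (81.7% lower), 362 without the filter, 314 with slide as a block, 0 within slide 1 (1809 lower and 1332 higher at unadjusted p under 0.05), 10 with the replicate block, 1601 with limma trend and robust (79.6% lower), 1825 with array weights (81.4% lower), 2056 without scaling and 124 to 446 without 1 replicate; quantile normalization gave 80.0% and median scaling 79.9% lower. No array correlated best with the one of its own number (0 of 6). In the pathway lists the 2 called genes, Trp73 and Rb1, became 0 under normexp, 4 with quantile normalization (Dnah5 and Hes5 added) and 1 with median scaling. The cause of the larger normexp values of 2 dim Rfx3 probes was not tested.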

Other observations

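Some genes of the multiciliated programme were too dim to test, and they are given here as values, having been picked after these were seen. Gmnc, which encodes the geminin family protein GEMC1 that acts above Mcidas, read 32.0, 39.4 and 24.7 units in knockout replicates 1 to 3 and 11.4, 24.7 and 22.0 units in wild type replicates 1 to 3. It was well above background on 2 knockout arrays and on 0 wild type arrays. Dnah9, an outer arm dynein of epithelial cilia, read 22.8, 21.3 and 23.3 units against 12.8 to 14.5 units and was well above background on 1 of 6 arrays. Mcidas, by contrast, was well above background and below saturation on all 6.

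The centriole gene Deup1 had 3 probes. The brightest, A_55_P2002642, was saturated on 5 of 6 arrays and differed by 0.23 (limma adjusted p = 0.263). The other two, unsaturated, differed by 0.06 and -0.04 (adjusted p = 0.847 and 0.816). Wfdc2, a secreted protein of epithelia, was picked after its values were seen. It read 353 units in wild type replicate 1 and 31.6 to 87.3 units on the other 5 arrays. Krt19, of the same marker list, went the other way among the wild types, with 61.4, 85.2 and 104 units in replicates 1 to 3.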
